A study of Mus musculus with 12 samples.

Results

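The 40 genes described here are a set of DNA replication and mitosis genes, chosen by symbol from what each is known to do although earlier results of these data were known at the time. 20 of them act in S phase or its onset and 20 in mitosis. They are 40 of the 35999 gene symbols measured, and all 40 had enough counts to be tested, among 17940 genes tested in all. Bulk RNA was sequenced from tumours grown under the skin of male BALB/c mice of 8 to 10 weeks. The tumour cells were AB1-HA, a mesothelioma line of BALB/c origin made to express influenza haemagglutinin as a model antigen. 6 tumours came from the PBS group and 6 from mice that received 100 µg of an antibody against CD4, which depletes CD4 T cells, on days -3, 0 and 7 around inoculation, and the labels name no control antibody. Tumours were taken on day 9, all come from a single cell line, and the labels neither tie a tumour to a mouse nor say whether mice were pooled.

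Before a cell copies its DNA, licensing factors load the MCM helicase onto replication origins, and E2F transcription factors switch on genes for licensing, replication forks and nucleotide supply as the cell leaves G1. Genes for mitosis are switched on later, by B-Myb and FOXM1 with the MuvB complex, through CHR elements that often lie near CCAAT boxes, which bind NF-Y. In a tumour, RNA of both waves is read as a measure of how many cells are in cycle, and cycling tumour cells, stromal cells and lymphocytes all add to it.

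The control regions of the 2 classes are shown first because they differ between the S phase and the mitotic members without the use of any expression value. RefSeq promoters (GRCm38.p6, 250 bases before to 50 after the start) matched 34 of the 40 members, and those of Ccne2, Gins2, Mcm4, Ccna2, Foxm1 and Aurkb were not matched. Capitals mark letters found on either strand: E2F sites (TTTCCCGC, TTTCGCGC, TTTGGCGC or TTTGCCGC), CHR elements (TTTGAA or TTCGAA) and CCAAT boxes (CCAAT). Mcm6 (chr1:128359656-128359955, minus strand) and Mcm5 (chr8:75109259-75109558, plus strand), both parts of the MCM helicase, are shown for the S phase class. They are examples rich in E2F matches, with 3 and 2, and 3 is the most of any member. Cdk1 (chr10:69352863-69353162, minus strand), the kinase that drives entry into mitosis, was the only mitotic member with an E2F match. Top2a (chr11:99024140-99024439, minus strand), the topoisomerase that untangles sister chromosomes, and Mki67 (chr7:135716330-135716629, minus strand), the Ki-67 protein of the chromosome surface, are shown for the mitotic class. Top2a had the most CHR (4) and CCAAT (6) matches of any member, so it is not typical of its class.
Mcm6: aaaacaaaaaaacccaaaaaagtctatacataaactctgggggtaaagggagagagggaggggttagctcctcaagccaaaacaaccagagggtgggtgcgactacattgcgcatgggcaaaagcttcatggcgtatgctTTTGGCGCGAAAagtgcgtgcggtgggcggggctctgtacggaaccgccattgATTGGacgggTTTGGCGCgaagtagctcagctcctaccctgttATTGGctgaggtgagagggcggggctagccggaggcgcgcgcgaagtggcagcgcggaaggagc
Mcm5: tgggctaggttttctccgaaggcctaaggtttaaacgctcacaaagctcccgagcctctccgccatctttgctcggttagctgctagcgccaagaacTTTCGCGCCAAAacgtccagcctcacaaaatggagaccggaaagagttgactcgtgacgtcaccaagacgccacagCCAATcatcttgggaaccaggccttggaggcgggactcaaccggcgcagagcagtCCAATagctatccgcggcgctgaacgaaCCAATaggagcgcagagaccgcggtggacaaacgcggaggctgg
Cdk1: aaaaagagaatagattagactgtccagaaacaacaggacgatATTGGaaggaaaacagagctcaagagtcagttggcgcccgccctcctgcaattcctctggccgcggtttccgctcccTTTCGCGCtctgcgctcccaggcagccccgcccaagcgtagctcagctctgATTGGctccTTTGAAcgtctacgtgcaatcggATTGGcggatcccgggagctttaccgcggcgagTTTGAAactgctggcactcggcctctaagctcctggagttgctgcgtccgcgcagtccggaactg
Top2a: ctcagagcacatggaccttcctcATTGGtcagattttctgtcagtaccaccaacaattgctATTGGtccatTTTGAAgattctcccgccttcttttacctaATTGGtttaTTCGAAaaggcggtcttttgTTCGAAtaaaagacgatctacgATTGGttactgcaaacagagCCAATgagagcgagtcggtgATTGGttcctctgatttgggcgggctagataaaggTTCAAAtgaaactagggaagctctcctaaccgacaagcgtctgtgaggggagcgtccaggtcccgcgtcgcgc
Mki67: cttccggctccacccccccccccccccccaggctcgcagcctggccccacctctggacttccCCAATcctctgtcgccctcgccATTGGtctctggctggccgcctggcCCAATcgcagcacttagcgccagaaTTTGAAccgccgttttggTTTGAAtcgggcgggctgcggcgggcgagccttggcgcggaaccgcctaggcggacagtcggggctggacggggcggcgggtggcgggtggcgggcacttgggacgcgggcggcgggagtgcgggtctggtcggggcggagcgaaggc

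In Mcm6 and Mcm5 a pair of E2F matches on opposite strands overlap, so that they appear as a single run of 12 capitals. E2F letters were present in 7 of 17 S phase promoters (41.2%), in 1 of 17 mitotic promoters (5.88%) and in 2.6% of the promoters of 27025 genes. CHR letters were present in 13 of 17 mitotic promoters (76.5%), in 3 of 17 S phase promoters (17.6%) and in 21.7% of all genes. All 13 mitotic promoters with CHR letters also held a CCAAT box, whereas both occurred together in 2 of 17 S phase promoters (11.8%) and in 9.65% of all genes. The CHR matches of mitotic members lay at a median of -18.5 bases from the start and their CCAAT matches at -74.5, and the E2F matches of S phase members at -108. The windows of E2f1, Cdc6 and Mcm7 lie wholly inside these genes as annotated in GENCODE M21. They may therefore not be sequence upstream of the gene, and the S phase counts include them. Of these, E2f1 had no E2F match, while Cdc6 and Mcm7 had matches. A match of letters describes the sequence and is not a measured binding site.

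None of the 40 genes was called higher or lower in anti-CD4 tumours by the edgeR quasi-likelihood test with Benjamini-Hochberg adjustment over all tested genes. In the same fit 2.95% of all tested genes were called higher and 2.33% lower, at an adjusted p under 0.05. At an unadjusted p under 0.05 there were 4 members, Gins2, Ccne2, Ccna2 and Bub1, all with a positive difference, which is 10% of the members against 28% of all genes. The sign was positive in 37 of 40 members (92.5%) against 49.9% of all genes, and the median log2 fold change of the members was 0.074 against -0.0003 for all genes. The spread ran from -0.077 for Tyms to 0.31 for Cdc20, and the groups overlapped for every member. Of the 17940 tested genes, 347 (1.93%) lay wholly above and 213 (1.19%) wholly below in anti-CD4 tumours, shares at which 0 of 40 is no result about the members. Other fits gave more calls: DESeq2 called 3 members higher (Ccne2, Ccna2 and Bub1, with 7.49% of all genes higher), and limma voom with sample weights called 11 (these 3, Gins2, Ccnb1, Ccnb2, Aurka, Aurkb, Bub1b, Cdc20 and Kif11, with 15.7% of all genes higher). Without PBS 1 edgeR called 3 (with 6.41% of all genes higher) and without anti-CD4 1 it called 4 (with 5.77%). Under upper quartile scaling 35.5% of the calls of the whole table were higher, against 55.9% with TMM scaling, and 30 members were positive. TMM factors had means of 1.03 ± 0.040 in PBS and 0.971 ± 0.022 in anti-CD4 tumours (SD), and a lower factor gives a higher CPM. Before this scaling the 40 members together took nearly equal shares of the counts, 0.425% in PBS and 0.428% in anti-CD4 tumours (means). The direction rested in part on PBS 4, without which 23 members were positive.

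**Figure D1:**
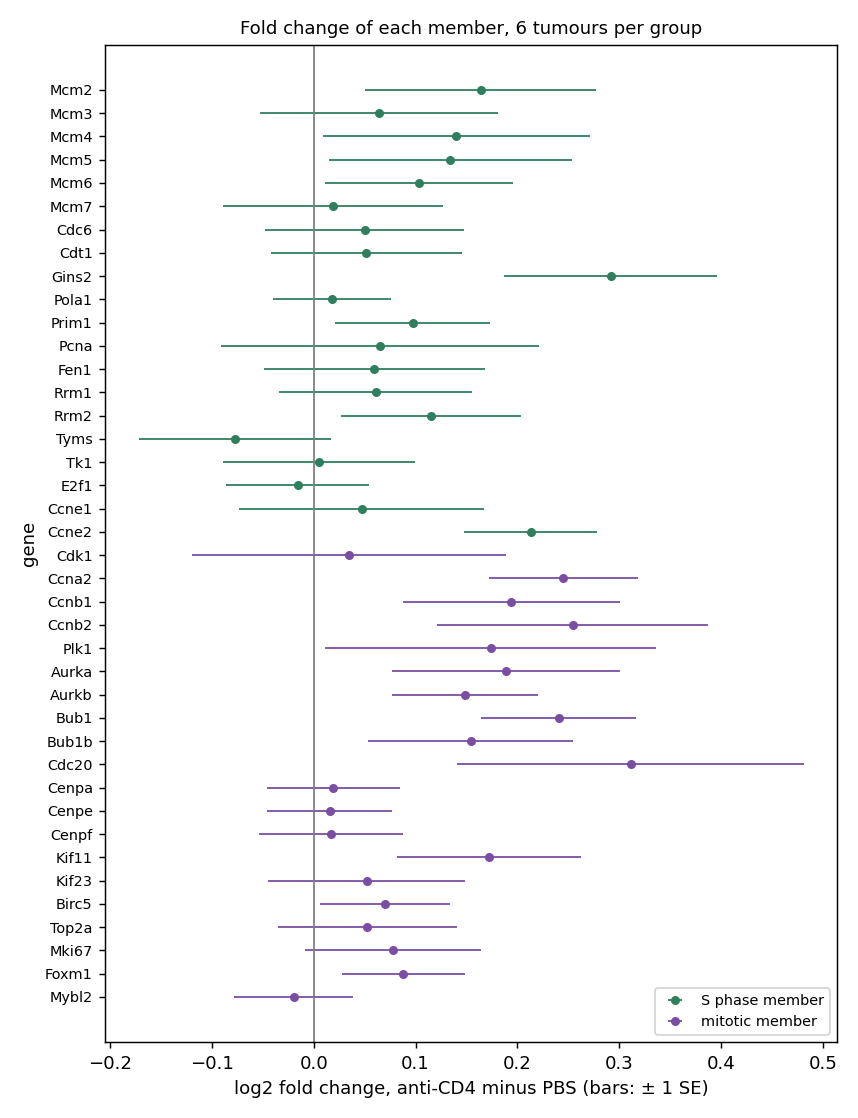
Log2 fold change (anti-CD4 minus PBS, x axis) of each of the 40 members (y axis), with bars of ± 1 SE from 6 tumours per group, S phase members in green and mitotic members in purple. 37 points lie right of 0, from -0.077 for Tyms to 0.31 for Cdc20, and for 20 members the point lies within 1 SE of 0.

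Libraries differed in depth and in the markers of several cell types. Totals ran from 30.75 to 41.93 M counts in PBS and from 34.45 to 62.06 M in anti-CD4 tumours (means 36.1 ± 4.03 and 46.4 ± 10.0 M, SD, n = 6 each, p = 0.039 by a two-sided exact permutation test). Cd4 itself fell from a mean of 6.31 ± 2.34 CPM in the 6 PBS tumours to 1.31 ± 0.498 CPM in the 6 others (± SD), or -2.26 on the log2 scale (adjusted p = 0.00298, SE 0.28). The summed level of 8 T cell markers was 26.9 to 56.7 CPM in PBS and 7.14 to 31.9 CPM in anti-CD4 tumours, with 3 of 8 lower, and Cd3e, the CD3 epsilon chain, had a log2 fold change of -1.28 (adjusted p = 0.128). For 8 pan leukocyte markers it was 565 to 1017 and 564 to 747 CPM, with 2 of 8 lower, and Ptprc (CD45) had a log2 fold change of -0.55 (adjusted p = 0.161). For 8 macrophage markers it was 975.3 to 2044 and 992 to 1232 CPM, with none called, 7 of 8 negative and a median log2 fold change of -0.38. For 8 fibroblast markers it was 14713 to 26902 and 26659 to 34176 CPM, with 2 of 8 higher. For 8 adipocyte markers it was 102 to 363 and 47.6 to 594 CPM, with none called, 5 of 8 positive and a median log2 fold change of 0.046, while the mean score of the list was 3.82 in PBS and 2.79 in anti-CD4 tumours. Among them Adipoq (adiponectin) had 0.50 (adjusted p = 0.776), with 29.5 CPM in anti-CD4 4 and under 1 CPM in 3 of the other anti-CD4 tumours. Of the mesothelial and tumour markers 5 of 8 could be tested, with summed levels of 126 to 173 and 133 to 201 CPM, a median log2 fold change of 0.26 and 3 of 5 positive. Pdpn (podoplanin) was the one called higher, at 0.33 (adjusted p = 0.0186), and Msln (mesothelin) had a log2 fold change of -0.039 (adjusted p = 0.866). Upk3b, Krt18 and Krt19 were too low to test. In bulk RNA, fewer cells of a type and less RNA per cell cannot be told apart, and the part of these cell types in the results below was not tested.

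The depth behind a member in a single tumour ran from 323 estimated counts for Ccne1 to 43718 for Mki67. Per kilobase of annotated exon, the members with the highest mean level over the 12 tumours were Ccna2 (64.4 CPM per kb), Mki67 (61.9), Top2a (48.7), Pcna (44.1), Rrm2 (42.2) and Cdc20 (40.6). Ccna2 and Mki67 are neighbours in this order and differ by less than the spread between tumours. Cdc6 (4.70 CPM per kb), Ccne1 (5.0) and Prim1 (5.97) had the lowest. The remaining members lay between these.

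The licensing genes Mcm2, Mcm3, Mcm4, Mcm5, Mcm6 and Mcm7 encode the 6 subunits of the replicative helicase, and Cdc6 and Cdt1 the factors that load it. All 8 had a positive log2 fold change, with a median of 0.084 and a range of 0.019 for Mcm7 to 0.16 for Mcm2, and none passed the test. Mcm2 was at 83.6, 109.6 and 130.1 CPM in PBS tumours (lowest, median, highest) and 99.5, 124 and 144 CPM in anti-CD4 tumours, at a log2 fold change of 0.16 (adjusted p = 0.355, SE 0.11). 3 of the 6 anti-CD4 tumours exceeded every PBS tumour for Mcm2, and the others lay within the PBS range. Mcm6 stood at 143, 173 and 215 CPM in PBS tumours (lowest, median, highest) and 163, 190.2 and 217 CPM in anti-CD4 tumours, at a log2 fold change of 0.10 (adjusted p = 0.472, SE 0.092). Only 1 anti-CD4 tumour exceeded every PBS tumour for Mcm6. Mcm3 had a log2 fold change of 0.064, and Mcm4 and Mcm5 had log2 fold changes of 0.14 (adjusted p = 0.498, SE 0.13) and 0.13 (adjusted p = 0.471, SE 0.12). The loading factors Cdc6 and Cdt1, with log2 fold changes of 0.050 and 0.052, had no anti-CD4 tumour above the highest PBS tumour.

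At the replication fork, Gins2 encodes a subunit of the GINS complex that joins the MCM ring to make the active helicase (chr8:120578633-120589304, GRCm38). It stood at 30.9, 35.9 and 48.05 CPM in PBS tumours (lowest, median, highest) and 37.1, 47.7 and 50.4 CPM in anti-CD4 tumours, at a log2 fold change of 0.29 (adjusted p = 0.098, SE 0.10), the largest among S phase members. All 6 anti-CD4 tumours exceeded the PBS median, and PBS 1 alone of its group reached the upper anti-CD4 tumours. Gins2 is uncertain as a gene count, because 2758 of its exon bases lie on those of Gse1 on the opposite strand, with the strand setting of the counting not given in the sources used here. Gse1 had a log2 fold change of -0.24 (adjusted p = 0.0756), of the opposite sign. Pcna encodes the sliding clamp of the DNA polymerases (chr2:132249162-132253314). It stood at 73.1, 107 and 127 CPM in PBS tumours (lowest, median, highest) and 80.6, 107 and 137 CPM in anti-CD4 tumours, at a log2 fold change of 0.065 (adjusted p = 0.808, SE 0.16). The highest and the lowest of the 12 tumours differed 1.88-fold for Pcna, and the group medians were nearly equal. Pola1 (catalytic subunit of polymerase alpha), Prim1 (primase) and Fen1 (flap nuclease of Okazaki fragments) had log2 fold changes of 0.018, 0.10 and 0.060. Fen1 shares 79.6% of its 31-base words with other annotated genes, mainly an antisense transcript named Gm10143.

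Among genes of nucleotide supply, Tyms (thymidylate synthase) had the lowest fold change of all members. It stood at 39.1, 48.3 and 55.7 CPM in PBS tumours (lowest, median, highest) and 37.1, 45.7 and 49.03 CPM in anti-CD4 tumours, at a log2 fold change of -0.077 (adjusted p = 0.612, SE 0.095). No anti-CD4 tumour exceeded the highest PBS tumour, and 2 of 6 exceeded the PBS median. Rrm1 and Rrm2, the subunits of ribonucleotide reductase, had log2 fold changes of 0.061 and 0.12, and Tk1 (thymidine kinase) 0.0054.

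Of the genes that take a cell from G1 into S phase, Ccne2 (cyclin E2) had the largest difference. It was at 19.4, 20.7 and 21.97 CPM in PBS tumours (lowest, median, highest) and 20.6, 24.2 and 26.8 CPM in anti-CD4 tumours, at a log2 fold change of 0.21 (adjusted p = 0.064, SE 0.065). 5 of 6 anti-CD4 tumours exceeded every PBS tumour, and anti-CD4 1 was the exception. Ccne1 (cyclin E1) stood at 10.1, 12.9 and 16.4 CPM against 10.9, 13.5 and 15.9 CPM, at a log2 fold change of 0.047 (adjusted p = 0.821, SE 0.12), and its groups overlapped throughout. E2f1, the activator of the S phase wave, had a log2 fold change of -0.016 (adjusted p = 0.902, SE 0.070). Ccne2 shares 609 exon bases with Ints8 on the opposite strand, and Ints8 had a log2 fold change of 0.15 (adjusted p = 0.14).

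**Figure D2:**
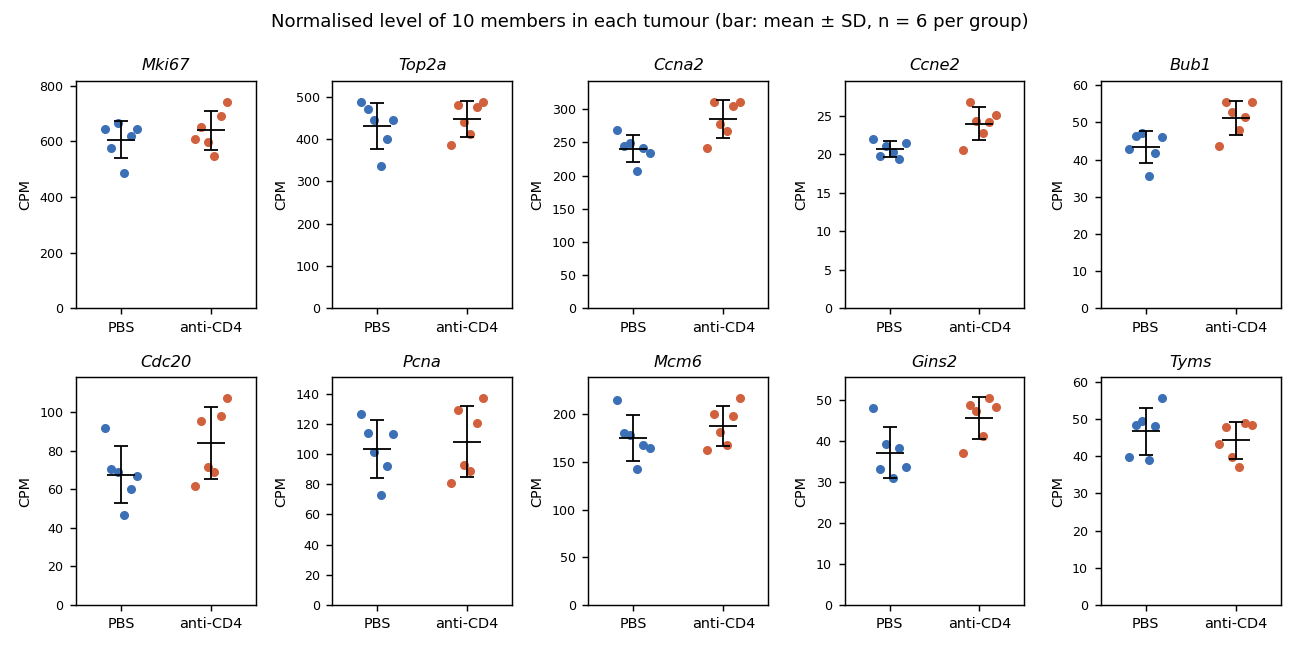
Normalised level (CPM, y axis from 0) of 10 members in each PBS (blue) and anti-CD4 (orange) tumour, with the mean and SD of 6 tumours as bars. For Ccne2 and Bub1, 5 of 6 anti-CD4 tumours lie above every PBS tumour, while for Mki67, Top2a, Pcna and Tyms the groups lie over each other.

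Among mitotic cyclins and kinases all 7 members had a positive difference (median 0.19 on the log2 scale), and none passed the test. Ccna2 encodes cyclin A2, which acts in S phase and up to mitosis (chr3:36564865-36572150). It stood at 206, 243 and 268 CPM in PBS tumours (lowest, median, highest) and 242, 291 and 311 CPM in anti-CD4 tumours, at a log2 fold change of 0.25 (adjusted p = 0.0594, SE 0.073), the smallest adjusted p of the 40 members. 4 anti-CD4 tumours exceeded every PBS tumour. Cdk1, its kinase partner, stood at 45.7, 64.2 and 80.1 CPM in PBS tumours (lowest, median, highest) and 49.6, 63.3 and 81.5 CPM in anti-CD4 tumours, at a log2 fold change of 0.035 (adjusted p = 0.901, SE 0.15). Only 1 anti-CD4 tumour exceeded the PBS range for Cdk1. Ccnb1 and Ccnb2, the cyclins B that switch Cdk1 on at mitosis, had log2 fold changes of 0.19 (adjusted p = 0.242, SE 0.11) and 0.25 (adjusted p = 0.226, SE 0.13). The kinases Plk1, Aurka and Aurkb, which build the spindle and correct its attachments, had log2 fold changes of 0.17 (adjusted p = 0.498, SE 0.16), 0.19 (adjusted p = 0.276, SE 0.11) and 0.15 (adjusted p = 0.191, SE 0.072).

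Bub1 and Bub1b encode spindle checkpoint proteins, and Cdc20 the activator of the anaphase-promoting complex that the checkpoint holds back. Bub1 (chr2:127801122-127831865) stood at 35.7, 44.5 and 47.02 CPM in PBS tumours (lowest, median, highest) and 43.6, 52.1 and 55.5 CPM in anti-CD4 tumours, at a log2 fold change of 0.24 (adjusted p = 0.0703, SE 0.076). 5 of 6 anti-CD4 tumours exceeded every PBS tumour for Bub1. Cdc20 had the largest fold change of all members and also the widest spread, with 46.5, 68.1 and 92.00 CPM in PBS tumours (lowest, median, highest) and 61.7, 83.6 and 107 CPM in anti-CD4 tumours. Its log2 fold change was 0.31 (adjusted p = 0.247, SE 0.17), 3 anti-CD4 tumours exceeded the PBS range, and the highest of the 12 tumours was 2.31 times the lowest. Bub1b had a log2 fold change of 0.15 (adjusted p = 0.324, SE 0.10).

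The 3 genes of the centromere and kinetochore had differences close to 0. Cenpa (the histone H3 variant of centromeres), Cenpe (a kinetochore motor) and Cenpf (a kinetochore protein) had log2 fold changes of 0.019 (adjusted p = 0.87, SE 0.065), 0.016 (adjusted p = 0.885, SE 0.061) and 0.017 (adjusted p = 0.895, SE 0.071). Their groups overlapped almost fully, with 1, 2 and 2 anti-CD4 tumours above the PBS range. Kif11 (the motor that separates spindle poles) had a log2 fold change of 0.17 (adjusted p = 0.225, SE 0.090), Kif23 (a motor of the central spindle) 0.052 (adjusted p = 0.75, SE 0.10) and Birc5 (survivin, of the chromosomal passenger complex) 0.070 (adjusted p = 0.48, SE 0.064).

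Mki67, the usual marker of cycling cells (chr7:135689784-135716361), stood at 487, 631 and 665 CPM in PBS tumours (lowest, median, highest) and 547, 630.1 and 743 CPM in anti-CD4 tumours. Its log2 fold change was 0.078 (adjusted p = 0.57, SE 0.086), with a 95% interval of -0.11 to 0.27. The group medians were almost equal, and PBS 4 and anti-CD4 6 were the lowest and highest of the 12. Top2a (chr11:98992943-99024189) stood at 336, 445 and 488 CPM in PBS tumours (lowest, median, highest) and 386, 459 and 488 CPM in anti-CD4 tumours, at a log2 fold change of 0.053 (adjusted p = 0.717, SE 0.088). Foxm1 and Mybl2 (B-Myb), the factors that switch on the mitotic wave, had log2 fold changes of 0.088 (adjusted p = 0.348, SE 0.061) and -0.020 (adjusted p = 0.848, SE 0.059). Mybl2 had the narrowest spread of all members, its highest tumour 1.22 times its lowest.

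Mitotic members had a median log2 fold change of 0.12 (19 of 20 positive) and S phase members one of 0.062 (18 of 20 positive). Without PBS 4 these medians were 0.073 and -0.005, and with the pan leukocyte score as a covariate they were 0.16 and 0.14. A class score, the mean log2 CPM of its 20 members in a tumour, put the difference between classes beside the spread of tumours. The S phase score was 5.68, 6.02 and 6.18 in PBS (lowest, median, highest) and 5.85, 6.08 and 6.24 in anti-CD4 tumours, a mean difference of 0.083 with SDs of 0.17 in each group. The mitotic score was 6.18, 6.47 and 6.65 in PBS and 6.38, 6.61 and 6.78 in anti-CD4 tumours, a mean difference of 0.12 with SDs of 0.16 in each. Both differences were smaller than 1 SD between tumours. The S phase score minus the mitotic score, which cancels what a tumour does to both classes alike, was -0.47 ± 0.032 in PBS and -0.51 ± 0.036 in anti-CD4 tumours (SD, n = 6 each). The difference between the groups was -0.041, about as large as the spread between tumours (pooled SD 0.034), and the groups overlapped. Because the members were chosen with earlier results known, these scores are a description and were not tested.

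The S phase and mitotic members varied together from tumour to tumour. PBS 4 was the lowest of the 12 tumours for 34 of 40 members (16 of 20 S phase and 18 of 20 mitotic), against 22.5% of 10109 tested genes with a mean of 10 CPM or more. The 6 exceptions were Pola1, Tyms, E2f1, Ccne2, Cenpa and Foxm1. Anti-CD4 6 was the highest for 23 members, 8 S phase (40%) and 15 mitotic (75%), against 16.2% of those genes. Within the anti-CD4 group, anti-CD4 1 and anti-CD4 4 had the 2 lowest S phase scores, and PBS 1 was the highest PBS tumour for 29 members. Spread was wider for S phase members in PBS, with a median coefficient of variation of 14.5% against 10.4% for mitotic members and 8.84% for all genes of 10 CPM or more. In anti-CD4 tumours the medians were 11.6%, 10.5% and 7.55%. All 40 members together took 0.348% (PBS 4) to 0.475% (anti-CD4 6) of the counts of a tumour, with group means of 0.425% and 0.428%.

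**Figure D3:**
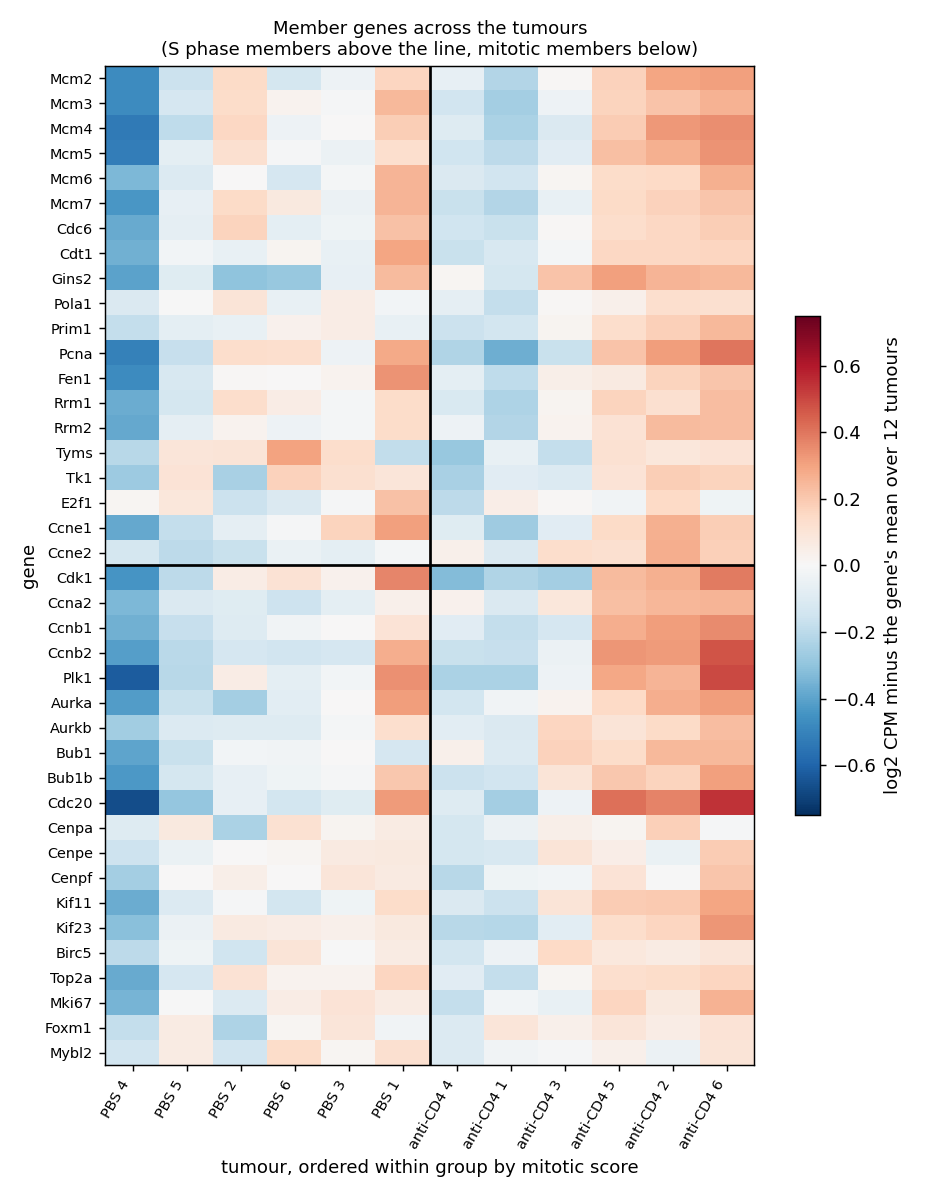
Log2 CPM of each member (y axis) minus its mean over the 12 tumours, by tumour (x axis, PBS left of the vertical line and anti-CD4 right of it, ordered by mitotic score), in blue where lower and red where higher. The PBS 4 column is blue and the anti-CD4 6 column red through nearly all S phase members (above the line) and mitotic members (below it), and E2f1 departs from this.

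A check against library totals was set when these genes were chosen. PBS 4 had the smallest library and anti-CD4 6 the largest. With group in the model, 38 of 40 members had a positive slope on the log2 library total, and 28 (70%) had an unadjusted p under 0.05, against 17.7% of all genes. None was called, as for all genes (0% of the 17940 called rising and 0% falling, smallest adjusted p of a member 0.178). The slope is a log2 difference per doubling of the total, and its median was 0.49 for S phase and 0.40 for mitotic members, with 0.99 (SE 0.26) for Cdc20, 0.88 for Plk1, 0.85 for Pcna and 0.81 for Cdk1. E2f1 (-0.074), Foxm1 (0.046) and Birc5 (0.093) had slopes near 0, and that of Cenpa was -0.0012. Without anti-CD4 4, whose library is large and whose scores are low, 15 members were called as rising with the total, against 3.22% of all genes. At equal library total the sign of the treatment difference turned for most members: 12 of 40 were positive, and the medians were -0.086 for S phase and -0.017 for mitotic members. In that fit 0 genes of the whole table were called higher and 5 lower. Totals and groups are partly confounded, and their parts in these values cannot be fully told apart. With every library thinned to the lowest total, 37 members were positive and 0 were called, against 2.25% of all genes called higher in that fit. Thinning keeps the proportions within a library, so it cannot decide whether the signs go with the totals or with treatment.

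Levels of the members also moved with skeletal muscle markers. The 4 tumours with the lowest S phase scores, PBS 4, anti-CD4 1, anti-CD4 4 and PBS 5, were the 4 with the highest muscle score (mean log2 CPM of 8 markers, 4.02 to 6.98 in PBS and 4.79 to 7.06 in anti-CD4). None of the 8 markers was called between the groups, Acta1 (skeletal actin) with 0.34 (adjusted p = 0.724), and none was at 0 in every tumour. All 8 had a positive difference, with a median log2 fold change of 0.31. The mean muscle score was 5.35 ± 1.23 in PBS and 5.81 ± 0.92 in anti-CD4 tumours (SD). In a fit of the muscle score with group in the model, chosen after these values were seen, all 40 slopes were negative and 34 had an unadjusted p under 0.05 (85%, against 18.3% of all genes). Cdk1 (-0.22, adjusted p = 0.0272), Ccnb1 (-0.15, 0.0337) and Ccne1 (-0.17, 0.0478) were called as falling with the score, 3 of 40, against 0.412% of all genes falling and 2.8% rising. The number of calls changed with the tumour left out: 0 members were called without PBS 1, PBS 4, anti-CD4 1, anti-CD4 2, anti-CD4 4 or anti-CD4 5, fits in which 0.0388% to 0.16% of all genes were called falling. The count was 1 without anti-CD4 6 (0.116% of all genes), 8 without PBS 2 (1.44%) and 11 without PBS 5 (1.92%), so that calls over all genes moved with it. The direction changed little: in each of these fits at least 39 slopes were negative. Between 24 and 38 members had an unadjusted p under 0.05, against 13% to 22.9% of all genes. PBS 4 had both the smallest library and a high muscle score, and the part of muscle RNA in the results was not tested. With muscle and adipocyte scores as covariates 37 members had a positive treatment difference, 8 had an unadjusted p under 0.05 and 0 were called, in a fit that called only 0.0613% of all genes higher.

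**Figure D4:**
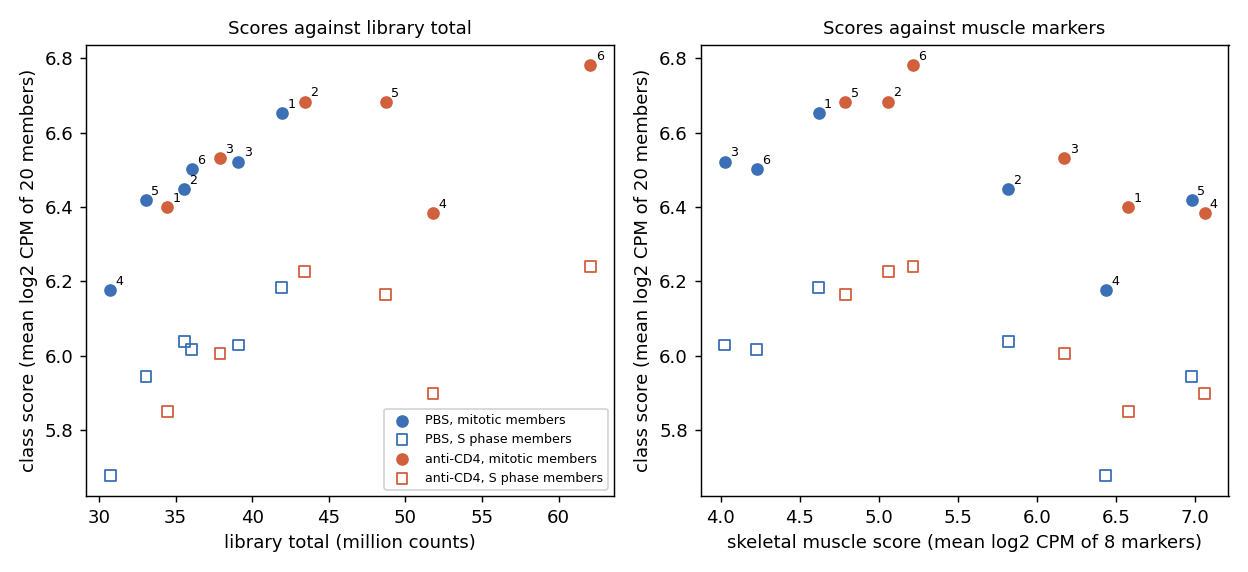
Class score (mean log2 CPM of 20 members, y axis) of each tumour against its library total in M counts (left) and against its skeletal muscle score (right), with filled circles for mitotic and open squares for S phase members, PBS in blue, anti-CD4 in orange, and numbers for the tumour. PBS 4 is lowest at 30.7 M counts and anti-CD4 6 highest at 62.1 M, and the tumours with the highest muscle scores have low scores of both classes.

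Genes of the same pathways outside the 40 were counted from lists chosen by function. Of 62 further mitotic genes 1 was called higher and 0 lower, and 55 (88.7%) had a positive difference, with a median log2 fold change of 0.11. The gene that rose was Ect2, the exchange factor that positions the cleavage furrow, from a mean of 106 ± 7.44 CPM in the 6 PBS tumours to 127 ± 13.4 CPM in the 6 others (± SD), or 0.26 on the log2 scale (adjusted p = 0.0469, SE 0.071). Mad2l1 (spindle checkpoint), Anln (anillin) and Sgo2a (shugoshin) had log2 fold changes of 0.20 (adjusted p = 0.0607), 0.25 (adjusted p = 0.0925) and 0.25 (adjusted p = 0.0939). Of 46 further replication genes none was called, 31 (67.4%) were positive and the median was 0.054. Nasp (a histone chaperone), Dbf4 (the activator of the Cdc7 kinase), Rfc5 and Rfc1 (clamp loader subunits) had log2 fold changes of -0.17 (adjusted p = 0.113), 0.19 (adjusted p = 0.119), 0.12 (adjusted p = 0.15) and 0.13 (adjusted p = 0.175).

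Replication-dependent histone genes, whose RNA builds up mainly in S phase, were measured because ribosomal depletion, unlike poly(A) selection, keeps them. They were taken by symbol, as all that start with Hist1h, Hist2h, Hist3h or Hist4h. The list so made was not checked gene by gene and includes pseudogenes such as Hist1h2aj. Of 65 tested, 0 were called and 62 were positive (95.4%), with a median log2 fold change of 0.23. Only 1, Hist1h2bp, had an unadjusted p under 0.05, with 0.34 (adjusted p = 0.177), and Hist1h1c, Hist1h1e and Hist1h2bb had log2 fold changes of 0.20 (adjusted p = 0.199), 0.26 (adjusted p = 0.199) and 0.35 (adjusted p = 0.213). Their summed CPM was 6110 ± 1565 over the PBS group and 7116 ± 1593 over the anti-CD4 group (± SD, n = 6 each), a difference smaller than the spread, and PBS 4 was lowest for 54 of 65. 60 of the 65 share 10% or more of their 31-base words with other genes, so single histone counts are uncertain. The 5 that do not had a median log2 fold change of 0.23.

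Genes that hold the cycle back and those that start it were counted in the same way. Of 28 tested genes listed as brakes 1 was called higher and 1 lower, and 23 were positive, with a median of 0.077. Over all tested genes 2.95% were called higher and 2.33% lower. An unadjusted p under 0.05 was found for 14.3% of the brakes and 36.4% of the G1 cyclins and drivers, against 28% of all genes. The list includes genes of the MuvB complex, such as Lin54, which with B-Myb and FOXM1 also switches mitotic genes on. The count is therefore not one of inhibitors alone. Ccng1 (cyclin G1, a target of p53) rose from a mean of 279.6 ± 22.5 CPM in the 6 PBS tumours to 342 ± 24.2 CPM in the 6 others (± SD), or 0.29 on the log2 scale (adjusted p = 0.0293, SE 0.064). Btg1 (an antiproliferative gene expressed in resting lymphocytes) fell from a mean of 252 ± 21.1 CPM in the 6 PBS tumours to 202 ± 28.4 CPM in the 6 others (± SD), or -0.32 on the log2 scale (adjusted p = 0.0471, SE 0.086), while Ccng2 and Lin54 had log2 fold changes of 0.21 (adjusted p = 0.126) and 0.16 (adjusted p = 0.158). Of 11 tested G1 cyclins and drivers only E2f2, an activator E2F, was called, and it fell from a mean of 21.5 ± 1.66 CPM in the 6 PBS tumours to 17.3 ± 2.05 CPM in the 6 others (± SD), or -0.32 on the log2 scale (adjusted p = 0.0423, SE 0.082). E2f3, Cdc25a and Cdk4 had log2 fold changes of -0.11 (adjusted p = 0.12), -0.13 (adjusted p = 0.151) and 0.18 (adjusted p = 0.176). In the same tumours 2 of 8 pan leukocyte markers were lower, and their part in the values of Btg1 and E2f2 was not tested.

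**Figure D5:**
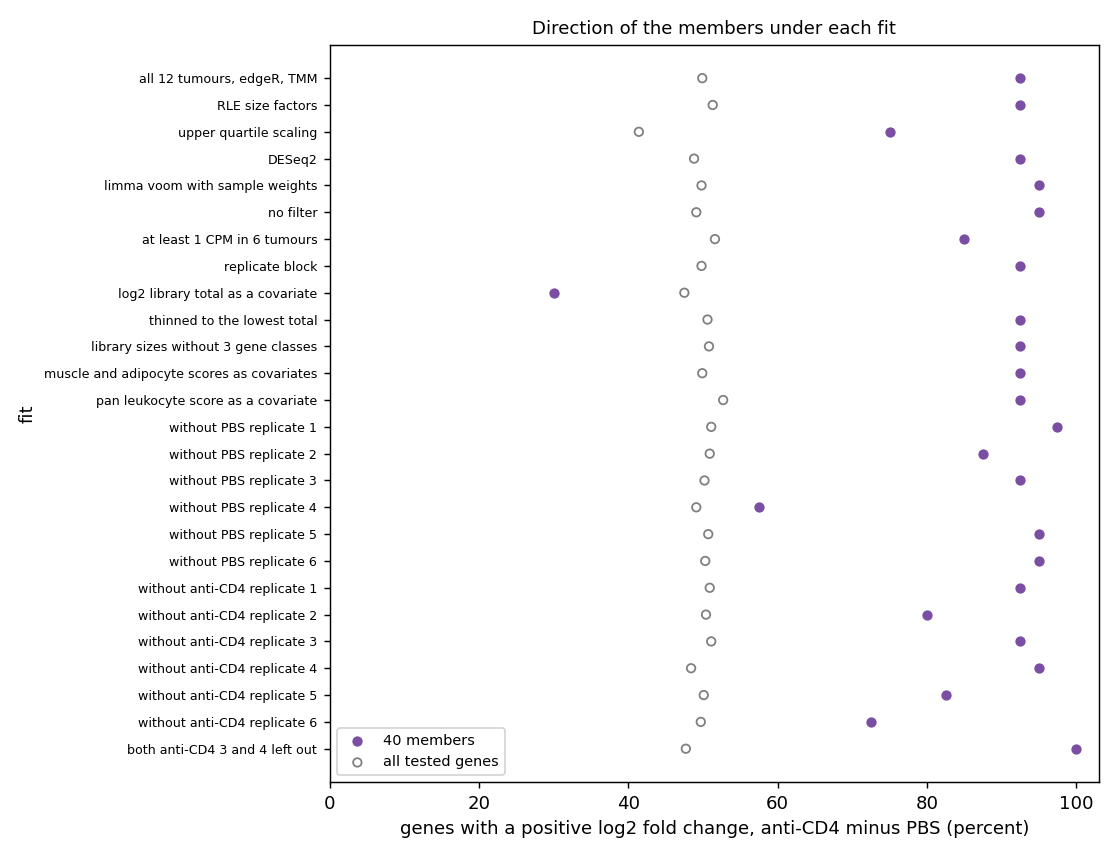
Share of genes with a positive log2 fold change (percent, x axis) for the 40 members (filled) and all tested genes (open) under each fit (y axis). The members stand at 92.5% with all 12 tumours, at 57.5% without PBS 4 and at 30% with the library total as a covariate, while all tested genes stand at 49.9%, 49.1% and 47.5%.

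Several of the 40 counts carry a limit of their own. 10 members have exons that overlap another gene, and 12 share 10% or more of their 31-base words with other genes. Among them are Mcm7 (33.4%), Ccnb1 (27.8%), Cdc20 (26.7%), Pcna (23.3%), Mybl2 (21.1%), Plk1 (18.7%), Rrm2 (12.8%) and Tyms (11.4%). For Ccnb1, Pcna, Plk1 and Tyms the main partner is a pseudogene by its symbol. For Mcm7, Cdc20, Mybl2 and Rrm2 it is a gene with a Gm number, whose type was not looked up. Ccna2 shares 12% with Exosc9, on 510 exon bases of the opposite strand, and Exosc9 had a log2 fold change of -0.011 (adjusted p = 0.946).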

How the data were processed

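Ribosomal and globin depleted RNA of 12 tumours was sequenced as 100-base pairs, per the labels' protocols. What the authors deposited are estimated counts, summed per gene symbol. The submitters' processing notes name bcl2fastq 2.20.0.422, kallisto and GRCm38.p6, with annotation release, gene summing, strand setting and filters not given in the sources used here. 26 symbols had been turned into dates (0.227% of counts). GENCODE M21 (GRCm38) matched 35903 symbols and gave coordinates and exon lengths.

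Estimated counts, rounded to whole numbers, were filtered with filterByExpr, scaled by TMM and fitted with the robust quasi-likelihood F test of edgeR 4.0.16 (R 4.3.3), with groups from the treatment label and no covariate. A gene was called where its p, adjusted over all tested genes after Benjamini and Hochberg, was under 0.05, and adjusted p-values are from this fit. SE is the log2 fold change over the root of F and is approximate. CPM use TMM library sizes, and log2 CPM a prior count of 2. Alternatives were other scalings, DESeq2 1.42.0, limma 3.58.1, other filters, covariates, a replicate block, thinning and leaving out tumours. The procedure was run on simulated data with planted changes, and how often changes as small as those of the members were called is not given here.

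Members and lists were chosen with earlier results of these data known. Named are all 40 members, the called genes and the 4 smallest p-values of each further list, Ptprc, Cd3e, Msln, Acta1 and Adipoq. Cd4, Pdpn, genes sharing exons with members, and histones with little shared sequence were named after their values were seen. No tumour of a group was a copy of another (chi-square per degree of freedom 8.54 to 67.7 over 30 pairs). P-values measure the spread between these tumours only.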

Additional observations from a re-analysis of the deposited data

Results flagged for a closer look

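A sample far from the other 5 of its group was looked for in 88 groups of 6 values, over the members and the class scores, and chance alone marks about 1 group in 20. 6 met the limit, Dixon's 95% limit on the gap to the nearest tumour as a share of the whole range. PBS 4 was far below its group for Mcm5 (71.1 CPM, next 96.6), Cenpf (124 CPM, next 147) and Kif23 (54.3 CPM, next 65.4). PBS 1 was far above its group for Ccnb2 (62.7 CPM, next 47.5). Anti-CD4 4 was far below its group for Foxm1 (165 CPM, next 182). PBS 2 had the highest S phase minus mitotic score of its group (-0.41, next -0.47), and without it the difference between groups was -0.029.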

How the results depend on the processing

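The count of members called lower was 0 in every fit run, and that of members called higher was 0 except with DESeq2 (3), limma voom with sample weights (11) and on leaving out PBS 1 (3: Gins2, Ccne2 and Ccna2, with 6.41% of all genes called higher) or anti-CD4 1 (4: the same and Bub1, with 5.77%), so that leaving out a tumour gave 0 to 4. Positive members numbered 12 with the library total as a covariate, 30 with upper quartile scaling, which moved the median of all genes to -0.046 and the share of higher calls from 55.9% to 35.5%, and 23 (without PBS 4) to 39 (without PBS 1) on leaving out a tumour. The S phase median was -0.005 to 0.13 and the mitotic median 0.073 to 0.16 on leaving out a tumour. The S phase and mitotic medians were 0.14 and 0.16 with the pan leukocyte score as a covariate, 0.14 and 0.17 with voom and 0.019 and 0.073 with upper quartile scaling. Leaving out a tumour gave an S phase minus mitotic difference of -0.053 to -0.029. Members called for the library total were 0 on leaving out any tumour but anti-CD4 4 (15), and members falling with the muscle score 0 to 11, with 0.0388% to 1.92% of all genes falling. Anti-CD4 3 and 4 had the highest T cell marker scores of their group, 1.23 and 1.59. Without both, 40 members were positive, 9 had an unadjusted p under 0.05 and 0 were called, with 2.07% of all genes called higher. The S phase scores (6.01 and 5.90) and mitotic scores (6.53 and 6.38) of these tumours lay below the group means of 6.06 and 6.58. Leaving them out therefore raises the anti-CD4 means by itself. The labels do not say whether tumours of the same replicate number share a day or batch. Correlations of same-numbered deviations were -0.41 to 0.23, and no PBS tumour was closest to the anti-CD4 tumour of its own number. So few correlations cannot decide whether such tumours share a batch, and no pairing was used in the main fit. With a replicate block 37 members were positive and 0 called, with 19 genes called higher and 14 lower in the whole table. The sign of a log2 fold change turned with the library total as a covariate for Mcm2 -0.037, Mcm3 -0.14, Mcm4 -0.10, Mcm5 -0.072, Mcm6 -0.064, Mcm7 -0.16, Cdc6 -0.091, Cdt1 -0.081, Pola1 -0.056, Prim1 -0.0058, Pcna -0.23, Fen1 -0.12, Rrm1 -0.11, Rrm2 -0.045, Tk1 -0.092, E2f1 0.0089, Ccne1 -0.17, Cdk1 -0.24, Ccnb1 -0.022, Plk1 -0.12, Bub1b -0.012, Cdc20 -0.024, Cenpe -0.072, Cenpf -0.076, Kif23 -0.13, Top2a -0.090, Mki67 -0.047. It turned with upper quartile scaling for Mcm7 -0.025, Pola1 -0.029, Tk1 -0.042, Cdk1 -0.0084, Cenpa -0.028, Cenpe -0.030, Cenpf -0.028, with a filter of 1 CPM in 6 tumours for Tk1 -0.013, Cenpe -0.0014, Cenpf -0.0003, with muscle and adipocyte scores for Pola1 -0.018, Mybl2 0.016, with the pan leukocyte score for Tk1 -0.0022, Mybl2 0.015, with voom for E2f1 0.0005, without a filter for E2f1 0.0009 and without both anti-CD4 3 and 4 for Tyms 0.016, E2f1 0.028, Mybl2 0.0054. On leaving out a tumour it turned for Mcm3 -0.012 to 0.13, Mcm7 -0.055 to 0.084, Cdc6 -0.012 to 0.11, Cdt1 -0.0081 to 0.13, Pola1 -0.0050 to 0.061, Pcna -0.017 to 0.15, Fen1 -0.016 to 0.15, Tk1 -0.044 to 0.052, E2f1 -0.046 to 0.037, Ccne1 -0.017 to 0.13, Cdk1 -0.046 to 0.13, Cenpa -0.015 to 0.047, Cenpe -0.023 to 0.050, Cenpf -0.028 to 0.058, Kif23 -0.016 to 0.11, Top2a -0.0092 to 0.10, Mybl2 -0.049 to 0.010. The cause was not tested.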
